A study of Mus musculus with 12 samples.

Results

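The genes described here are 10 cytosolic and mitochondrial heat shock genes of the mouse: Hspa1a, Hspa1b, Hspa8, Hsp90aa1, Hsp90ab1, Hspd1, Hspe1, Hsph1, Dnajb1 and Hspb1. They were listed by symbol and matched to Ensembl identifiers, and 10 of 10 were found among the 55401 genes of the count files. Their RNA was measured in Neuro-2a, a mouse neuroblastoma cell line. All groups were transfected with 1 µg of a GFP plasmid together with 3 µg of plasmids for miR30-based microRNAs. These carried a scramble sequence (miScramble), a pool of 3 sequences against Rbmx (miRbmx) or a pool of 2 against Rbmxl1 (miRbmxl1), with 4 libraries in each group. GFP-positive cells of all groups were sorted after 48 hours, and GFP marks uptake of its own plasmid and not of the microRNA plasmids. Ribosomal RNA was removed from total RNA before stranded libraries were made. The labels number the libraries of each group as biological replicates 1 to 4 without saying what separates them. The p-values measure the spread between these libraries, and in tests with a replicate term only the spread left after that term.

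Heat shock proteins are molecular chaperones, which bind unfolded proteins and help them reach or regain their folded form. Some are made at all times and are among the most abundant proteins of the cytosol, while others are switched on when heat shock factor 1 (HSF1) binds heat shock elements, runs of inverted GAA and TTC blocks near the start of the gene. The HSP70 chaperones (Hspa1a and Hspa1b, inducible; Hspa8, constitutive) work with J-domain proteins such as Dnajb1, which deliver clients and stimulate ATP hydrolysis, and with the nucleotide exchange factor Hsph1. The HSP90 chaperones (Hsp90aa1, inducible; Hsp90ab1, constitutive) mature kinases and steroid receptors, Hspd1 and Hspe1 form the HSP60 and HSP10 folding chamber of mitochondria, and Hspb1 is a small heat shock protein that holds unfolded proteins without using ATP.

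The libraries held 43.1 to 52.2 M reads in genes. Rbmx was at 22.2 to 32.6 CPM (reads per 1 M reads in genes) in miRbmx against 57.6 to 73.3 CPM in miScramble, and Rbmxl1 was at 12.3 to 16.7 CPM in miRbmxl1 against 31.3 to 36.7 CPM in miScramble, so each targeted gene was lowest in the group named for it. Rbmx was also higher in miRbmxl1, at 81.9 to 90.0 CPM, than in every miScramble library (log2 fold change 0.36 ± 0.07 SE, edgeR adjusted p 0.0165). Of 7 pan-neuronal markers, 5 were at 1 CPM or more in every library, the exceptions being the neurofilament genes Nefl and Nefm, while none of 6 fibroblast, 5 macrophage and 4 epithelial markers reached 1 CPM in every library. Replicates 1 and 2 of all groups stood apart from replicates 3 and 4 of all groups. The replicate number is a term in the tests, as planned with earlier results of these data known. In these bulk samples fewer cells of a type and less RNA per cell cannot be told apart.

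The sequences before the start sites are shown for the letters of the heat shock element in the members that have an entry. RefSeq promoters on GRCm38.p6 matched 7 of the 10 members, with 10 start sites. Those of Hspa8, Hsp90aa1 and Hsp90ab1 were not used here. The 250 bases before each start were searched on both strands for GAANNTTCNNGAA, a run of 3 blocks, and for GAANNTTC and TTCNNGAA, the pairs of blocks it contains and overlaps. The 3-block run was found in 0.466% of 32851 promoters of the same length, and the pairs in 6.69% and 7.17%. Capitals mark the matches in the stretches shown, which read 5′ to 3′ in the direction of the gene.
Hspe1: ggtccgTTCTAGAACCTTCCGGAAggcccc
Hspd1: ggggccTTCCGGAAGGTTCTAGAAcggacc
Hspa1a: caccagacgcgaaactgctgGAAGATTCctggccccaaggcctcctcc
Hspa1b: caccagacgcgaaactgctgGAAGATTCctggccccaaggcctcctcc
Hspb1: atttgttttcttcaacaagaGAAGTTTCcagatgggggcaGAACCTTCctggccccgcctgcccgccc
Hsph1: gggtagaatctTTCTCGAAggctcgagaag

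The Hspe1 and Hspd1 lines are the same 30 bases, chr1:55088053-55088082, read on the plus and the minus strand where these divergent genes begin side by side. They hold the only 3-block runs found among the members, overlapping matches that begin 89 bases before the Hspe1 start. The other Hspd1 start in the table had no match for any of these motifs. The Hspa1a stretch (chr17:34972233-34972280, minus strand) and the Hspa1b stretch (chr17:34959315-34959362, minus strand) were identical, and over the full 250 bases these genes differed at 3 positions. Hspb1 (chr5:135887782-135887849, plus strand) had a pair of GAANNTTC matches, and Hsph1 (chr5:149636351-149636380, minus strand) had 1 TTCNNGAA match. Neither start of Dnajb1 had a match for any of these motifs. The Hspe1, Hspd1 and Hsph1 stretches lie before RefSeq starts but overlap annotated exons of GENCODE M21, in which Hspd1 begins further upstream and Hsph1 within the stretch. A match is a run of letters and not a measured binding site.

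Compared per length, the members fell into an abundant, a moderate and a nearly silent class. Hsp90ab1 (ENSMUSG00000023944; chromosome 17, 45567775 to 45573271, minus strand) was at 1024 to 1747 CPM per kilobase of merged exons over the 12 libraries and ranked 6 of 17569 genes tested by mean CPM. Hspa8 (ENSMUSG00000015656; chromosome 9, 40800984 to 40810087, plus strand) was next at 264 to 738 CPM per kilobase and ranked 18. Hspd1 (ENSMUSG00000025980; chromosome 1, 55077835 to 55088243, minus strand), at 148 to 199 CPM per kilobase, and Hsp90aa1 (ENSMUSG00000021270; chromosome 12, 110690605 to 110702728, minus strand), at 104 to 164, were neighbours whose ranges overlapped. Constitutive chaperones thus held the first places of the order, and the inducible HSP90 gene lay below its constitutive relative in every library.

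The moderate class began with Hspe1 (ENSMUSG00000073676; chromosome 1, 55088132 to 55091307, plus strand) at 51.2 to 80.4 CPM per kilobase. Hsph1 (ENSMUSG00000029657; chromosome 5, 149614287 to 149636376, minus strand) was at 20.8 to 48.7 and Dnajb1 (ENSMUSG00000005483; chromosome 8, 83608193 to 83612653, plus strand) at 16.4 to 33.1 CPM per kilobase, and their ranges overlapped. These 3 genes encode a co-chaperonin, an exchange factor and a J-domain protein, each a partner of one of the abundant chaperones. All 7 genes above are protein coding. The order can also depend on how many reads could be placed, for which the shared sequence of each gene is given next.

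The other 3 members, all inducible, were close to absent from the counts. Hspa1a (ENSMUSG00000091971; chromosome 17, 34969190 to 34972156, minus strand) had 6 reads in all, with 0 in 9 of 12 libraries, including all miScramble libraries. Hspa1b (ENSMUSG00000090877; chromosome 17, 34956436 to 34959238, minus strand) had 73 reads, from 0 to 12 per library, with 17 in miScramble, 30 in miRbmx and 26 in miRbmxl1. Hspb1 (ENSMUSG00000004951; chromosome 5, 135887919 to 135889563, plus strand) had 13 reads, from 0 to 4 per library. The limit that an empty library sets, 3 counts, was 0.0557 to 0.0698 CPM depending on its depth, and it covers counting error only. None of these genes passed the filter on low counts, so 7 of 10 members were tested. Summed as 1 feature, Hspa1a and Hspa1b had 79 reads, which did not pass either.

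**Figure D1:**
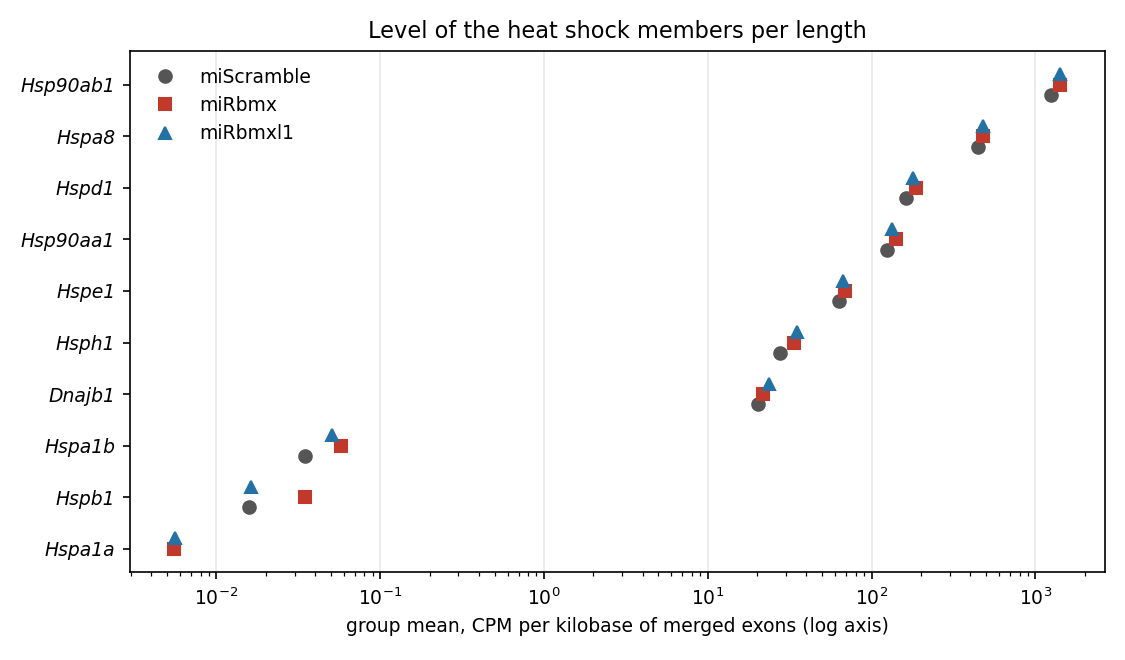
Group mean level of each member, in CPM per kilobase of merged exons on a log axis, with 1 symbol per group of 4 libraries. Hsp90ab1 has the highest level and Hspa1a, Hspb1 and Hspa1b lie lowest, and the Hspa1a mean of miScramble, which is 0, is not drawn.

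Sequence shared with other genes can lower some of these counts, since the files hold reads with several alignments in a row of their own and not under a gene. Of the 50-base words of the longest transcript, 66.3% of those of Hspa1a occurred in another gene (58.8% in Hspa1b), and 62.3% of those of Hspa1b occurred in Hspa1a. For Hspb1, 51.6% of words occurred in the pseudogene Hsp25-ps1. Among the abundant members, 58.5% of the words of Hsp90aa1, 52.7% of those of Hspa8 and 44.8% of those of Hspd1 occurred in another gene, mainly in Gm12346, Gm15459 and Hspd1-ps3. The shares were 8.20% for Hspe1, 4.49% for Hsp90ab1, 0.441% for Dnajb1 and 0 for Hsph1. They depend on the word length: with 100-base words they were 56.5% for Hspa1a, 49.9% for Hspa1b, 42.7% for Hspb1, 47.5% for Hsp90aa1, 32.1% for Hspa8, 26.9% for Hspd1 and 0.347% for Hspe1. The levels of Hsp90aa1, Hspa8 and Hspd1 may therefore be understated relative to Hsp90ab1, by an amount that was not tested. A comparison of 1 gene between groups uses the same placeable sequence, but the share of reads with several alignments differed by library. In replicates 1 to 4 it was 22.6%, 25.7%, 20.6% and 21.9% in miScramble. It was 26.5%, 25.8%, 21.4% and 24.6% in miRbmx, and 26.0%, 23.2%, 23.6% and 23.0% in miRbmxl1. Its part in the changes between groups was not tested. Exons of Hspa8 overlap 3 small nucleolar RNA genes on the same strand, and Hspd1 and Hspe1 overlap each other on opposite strands, so some of their reads are uncertain.

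Library by library, most members followed the replicate number more than the knockdown. Hspa8 was at 2485, 2294, 1379 and 1506 CPM in miScramble replicates 1 to 4. It was at 2983, 2689, 1311 and 1308 CPM in miRbmx. It was at 3172, 2438, 1137 and 1506 CPM in miRbmxl1. Every library numbered 1 or 2 lay above every library numbered 3 or 4, and the ratio of the medians of these sets of 6 libraries was 1.92. The groups overlapped.

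Hsp90ab1 showed the same split with a smaller ratio, 1.28. Its levels in replicates 1 to 4 were 4294, 4347, 3071 and 3259 CPM in miScramble. They were 5019, 4861, 3554 and 3627 CPM in miRbmx. They were 5240, 4326, 3655 and 3726 CPM in miRbmxl1. In each replicate number miScramble was the lowest of the 3 libraries, except in replicate 2, where miRbmxl1 was lower.

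For Dnajb1, the ratio was 1.27 and the libraries ranged from 67.7 to 106 CPM in replicates 1 and 2 and from 52.4 to 66.8 CPM in replicates 3 and 4. The highest Dnajb1 value belonged to miRbmxl1 replicate 1, which was also the highest library for Hspa8, Hsp90ab1, Hsp90aa1, Hsph1 and Hspd1. For Hspe1 the ratio was 1.37, with 101.3 to 118 CPM in replicates 1 and 2 against 75.5 to 94.5 CPM in replicates 3 and 4. Together with Hsph1, 5 of the 7 tested members had every library of replicates 1 and 2 above every library of replicates 3 and 4, as did 10.6% of all genes tested. Hsp90aa1 overlapped narrowly, with 509 to 643 CPM against 407 to 516 CPM. Hspd1 did not follow the split: its medians were 458 CPM in replicates 1 and 2 and 457 CPM in replicates 3 and 4, although its start lies beside that of Hspe1. Over the 12 libraries the Pearson r of log2 CPM, given as a description of libraries that share these sets, was 0.21 between Hspd1 and Hspe1 and 0.96 between Hsph1 and Hsp90ab1. The labels give no date or batch, so what separates the sets was not tested.

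**Figure D2:**
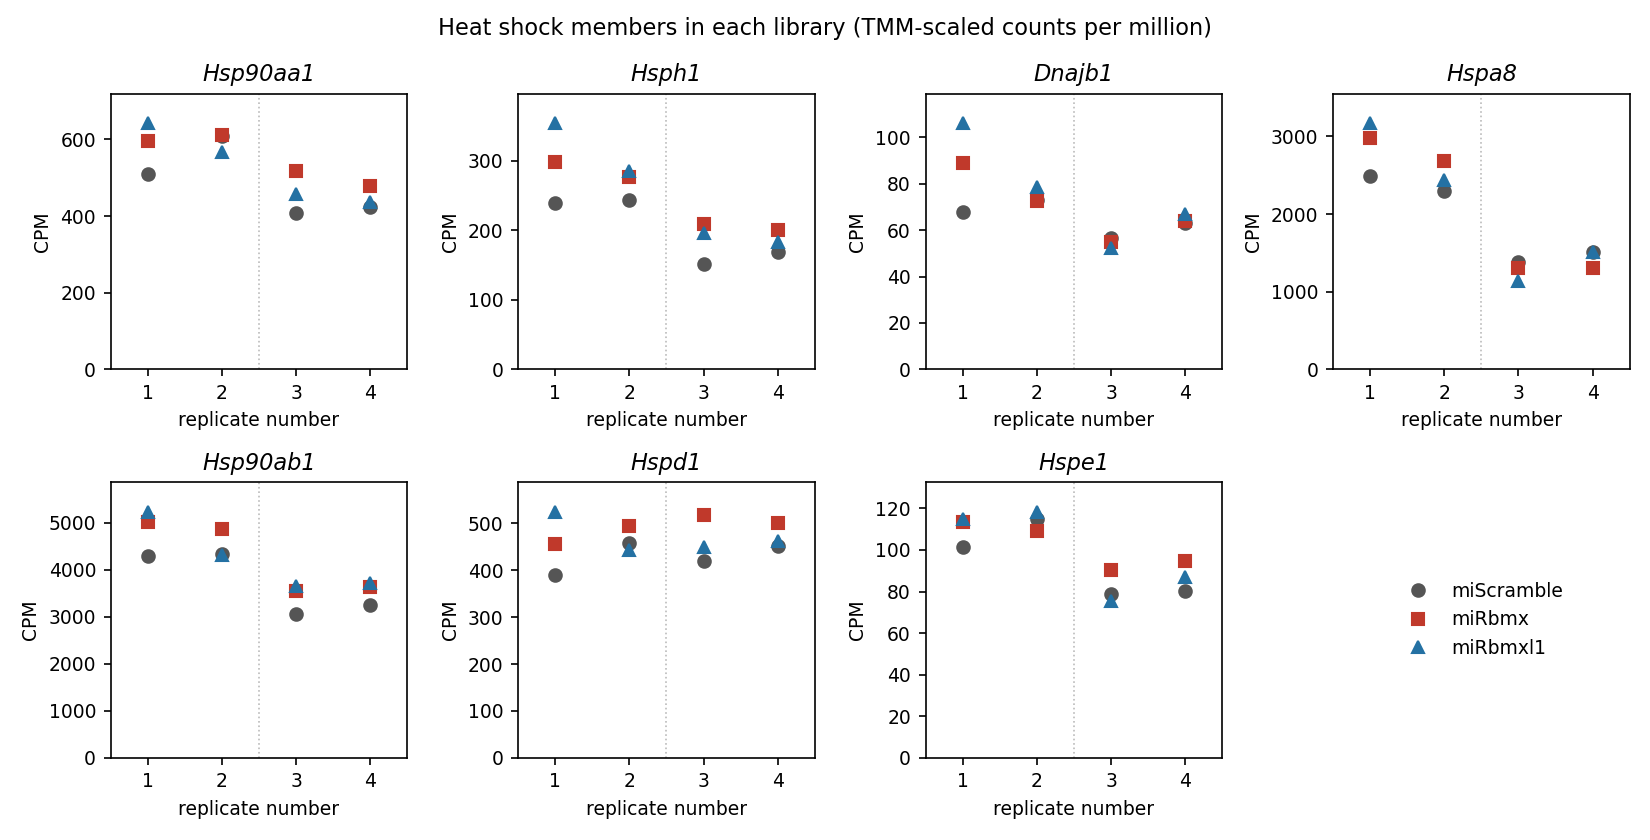
Level of each tested member in CPM (vertical axes, from 0) by replicate number, with 1 point per library and the group shown by colour and shape. Replicates 1 and 2, left of the dotted line, lie above replicates 3 and 4 in every panel except that of Hspd1 and, for a narrow overlap, that of Hsp90aa1.

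The knockdowns were then set against miScramble within replicate numbers, which asks whether these chaperones differ where Rbmx RNA is lower, or where Rbmxl1 RNA is lower and Rbmx RNA is higher. Hsph1, the exchange factor of HSP70, was the only member that edgeR called in either knockdown with the block over all libraries, and it was higher in both. DESeq2 with the block called Hsph1 and Hsp90ab1 in both, 2 of 7 members, beside 11.5% and 7.28% of all genes. It was at 240, 243, 151 and 168 CPM in miScramble replicates 1 to 4. It was at 297, 277, 208 and 201 CPM in miRbmx, and at 354, 285, 196 and 184 CPM in miRbmxl1. Each knockdown library lay above the miScramble library of the same number, in 4 of 4 pairs for both, while the groups overlapped because of the replicate sets.

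Hsph1 averaged 200 ± 47.7 CPM (SD, n = 4) in miScramble and 246 ± 48.5 CPM (SD, n = 4) in miRbmx, and in edgeR's quasi-likelihood test with the replicate block it rose by 23.4% (log2 fold change 0.30 ± 0.07 SE, adjusted p 0.0168). In miRbmxl1 it averaged 254 ± 80.2 CPM (SD, n = 4) and rose by 25.2% (0.32 ± 0.07 SE, adjusted p 0.0193). The miScramble libraries are the same in both comparisons. The share of each file in rows that name no gene was 52.3%, 53.5%, 52.9% and 55.3% in miScramble replicates 1 to 4. It was higher in each same-numbered library of miRbmx (54.2%, 55.5%, 53.5% and 57.4%) and of miRbmxl1 (55.3%, 53.7%, 56.8% and 56.4%), and its part in the changes of Hsph1 and the other members was not tested. Without the block the log2 fold changes were 0.29 ± 0.22 SE and 0.34 ± 0.22 SE and neither was called by edgeR (adjusted p 0.675 and 0.735), where 0.00569% of all genes were called in each comparison. Leaving out all libraries of replicate 3 (0.25, adjusted p 0.118, and 0.31, adjusted p 0.0946) or of replicate 4 (0.32, adjusted p 0.0503, and 0.39, adjusted p 0.0505) also ended both calls, as did leaving out replicate 1 in miRbmxl1 (0.24, adjusted p 0.103). In miRbmx the call was lost without miScramble replicate 1 (log2 fold change 0.26, adjusted p 0.0662), miScramble replicate 3 (0.27, 0.0842) or miRbmx replicate 3 (0.26, 0.0757). In miRbmxl1 it was lost without miScramble replicate 1 (0.28, 0.0743), miScramble replicate 3 (0.29, 0.0939) or miRbmxl1 replicate 1 (0.24, 0.0742).

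Thus 1 of 7 tested members was called in each knockdown, beside 8.35% of all genes tested in miRbmx and 4.46% in miRbmxl1. At an unadjusted p under 0.05 there were 4 and 2 members, beside 24.9% and 19.8% of all genes. The log2 fold changes were above 0 for 7 of 7 in both comparisons, which share the miScramble libraries, beside 50.0% and 51.4% of all genes. The knockdown library was higher in 4 of 4 pairs for 4 members in miRbmx and for Hsph1 in miRbmxl1, beside 17.7% and 13.4% of all genes. None of the 7 had groups that did not overlap, where 8.07% and 5.67% of all genes did.

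The HSP90 genes were slightly higher in the knockdowns without passing the threshold. Hsp90ab1 had a log2 fold change of 0.19 ± 0.06 SE in miRbmx (edgeR adjusted p 0.0751), with the knockdown library higher in 4 of 4 pairs, and of 0.18 ± 0.06 SE in miRbmxl1 (adjusted p 0.110), with 3 of 4 higher. DESeq2 on the same terms called it in both (adjusted p 0.0227 and 0.0432). Hsp90aa1 was at 509, 609, 407 and 423 CPM in miScramble replicates 1 to 4. It was at 597, 612, 516 and 478 CPM in miRbmx and at 643, 566, 458 and 438 CPM in miRbmxl1. These gave 0.19 ± 0.07 SE (edgeR adjusted p 0.0993) and 0.11 ± 0.07 SE (adjusted p 0.392), with ranges that overlapped. Some other settings of edgeR called these genes in miRbmx: with no filter the adjusted p was 0.0159 for Hsp90ab1 and 0.0364 for Hsp90aa1, and with only the groups compared it was 0.0258 and 0.0464. Upper-quartile scaling called Hsp90ab1 in miRbmx (0.0449), and no filter called it in miRbmxl1 (0.0475). Among left-out libraries, Hsp90aa1 was called in miRbmx without replicate 2 (0.0490) or miRbmxl1 replicate 1 (0.0492). Hsp90ab1 was called without miRbmxl1 replicate 2 in both knockdowns (0.0166 and 0.0172) and without replicate 2 in miRbmxl1 (0.0415). Without replicate 1 the log2 fold change of Hsp90aa1 in miRbmxl1 was 0.029.

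For the mitochondrial pair, Hspd1 had a log2 fold change of 0.19 ± 0.07 SE in miRbmx (edgeR adjusted p 0.103), higher in 4 of 4 pairs, and 0.13 ± 0.07 SE in miRbmxl1 (adjusted p 0.349), which was 0.018 without replicate 1. Its levels were 390 to 459 CPM in miScramble, 457 to 518 CPM in miRbmx and 443 to 525 CPM in miRbmxl1, so that 1 miScramble library lay within the miRbmx range. Hspe1 had 0.13 ± 0.07 SE (adjusted p 0.220) and 0.07 ± 0.07 SE (adjusted p 0.590). Leaving out libraries took Hspe1 from 0.087 to 0.208 in miRbmx and from 0.028 to 0.125 in miRbmxl1. By edgeR with the block over all libraries neither subunit of the folding chamber was called in either knockdown. Hspd1 was called in miRbmx with no filter on low counts (adjusted p 0.0287), in a fit of only the groups compared (0.0258) and without miRbmxl1 replicate 1 (0.0275).

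Hspa8 and its J-domain partner Dnajb1 had the values nearest to 0 in miRbmx, and Hspa8 also in miRbmxl1. Hspa8 had a log2 fold change of 0.05 ± 0.09 SE in miRbmx (edgeR adjusted p 0.763) and of 0.04 ± 0.09 SE in miRbmxl1 (adjusted p 0.856), each with 2 of 4 pairs higher. The 95% intervals run from 0.911-fold to 1.18-fold and from 0.903-fold to 1.17-fold. Dnajb1 had 0.08 ± 0.09 SE (adjusted p 0.60) and 0.18 ± 0.09 SE (adjusted p 0.258), the latter being 0.024 without replicate 1.

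**Figure D3:**
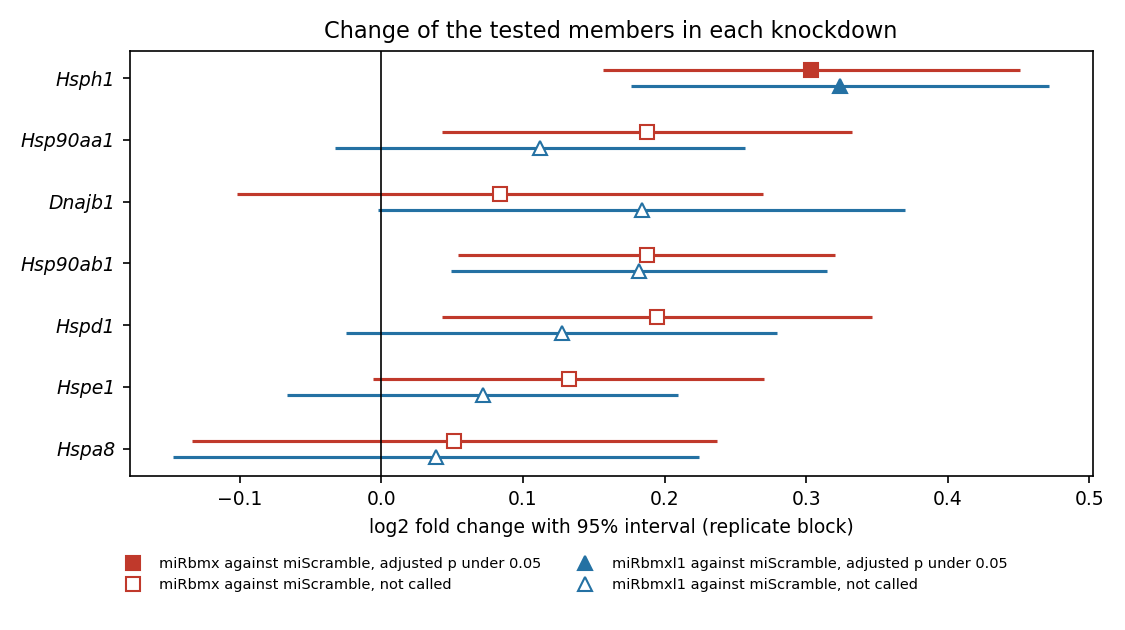
Log2 fold change of each tested member against miScramble, with bars for 95% intervals from edgeR's model with the replicate block; filled symbols passed the adjusted threshold. Hsph1, at 0.30 and 0.32, is the only member with filled symbols, and all 7 members lie above 0 in both knockdowns.

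Since the replicate sets dominated the levels, each change was also taken within replicates 1 and 2 and within replicates 3 and 4. Hsph1 was higher in all of these, by log2 fold changes of 0.26 and 0.35 in miRbmx and 0.41 and 0.24 in miRbmxl1. Hsp90aa1, Hsp90ab1, Hspd1 and Hspe1 were also above 0 in both sets of both knockdowns. In each knockdown 7 of 7 members were above 0 within replicates 1 and 2 and 5 of 7 within replicates 3 and 4. Of 17569 genes, 8460 and 9028 were above 0 within replicates 1 and 2, and 9056 and 8704 within replicates 3 and 4. The change of Hsph1 was called within replicates 3 and 4 (edgeR adjusted p 0.00374 and 0.0494) and not within replicates 1 and 2 (0.201 and 0.125). Hsp90aa1, Hspd1 and Hsph1 were called in miRbmx within replicates 3 and 4, that is 3 of 7 members beside 10.1% of the genes tested there. In miRbmxl1 there, Hsp90ab1 and Hsph1 were called, beside 5.53% of genes. Within replicates 1 and 2, where Hspa1b also passed the filter, edgeR called 0 of 8 members in either knockdown, beside 0.0230% and 0.172% of genes. At an unadjusted p under 0.05 there were 2 and 3 members, beside 18.5% and 13.4% of genes.

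Hspa8 took opposite signs in the sets. Its log2 fold change was 0.25 ± 0.10 SE within replicates 1 and 2 and −0.14 ± 0.08 SE within replicates 3 and 4 in miRbmx, and 0.23 ± 0.10 SE and −0.14 ± 0.08 SE in miRbmxl1. The test of this difference, a group by replicate set term added after the data were seen, gave −0.38 ± 0.14 SE (unadjusted p 0.0191, edgeR adjusted p 0.372) and −0.36 ± 0.14 SE (unadjusted p 0.0266, adjusted p 0.542). Dnajb1 was at 0.39 ± 0.12 SE and −0.02 ± 0.07 SE in miRbmxl1, a difference of −0.39 ± 0.15 SE (unadjusted p 0.0214, adjusted p 0.521). For either knockdown against miScramble edgeR called this difference in 0.00% of all genes, and 11.1% and 8.36% of all genes had an unadjusted p under 0.05, against 1 and 2 of 7 members.

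**Figure D4:**
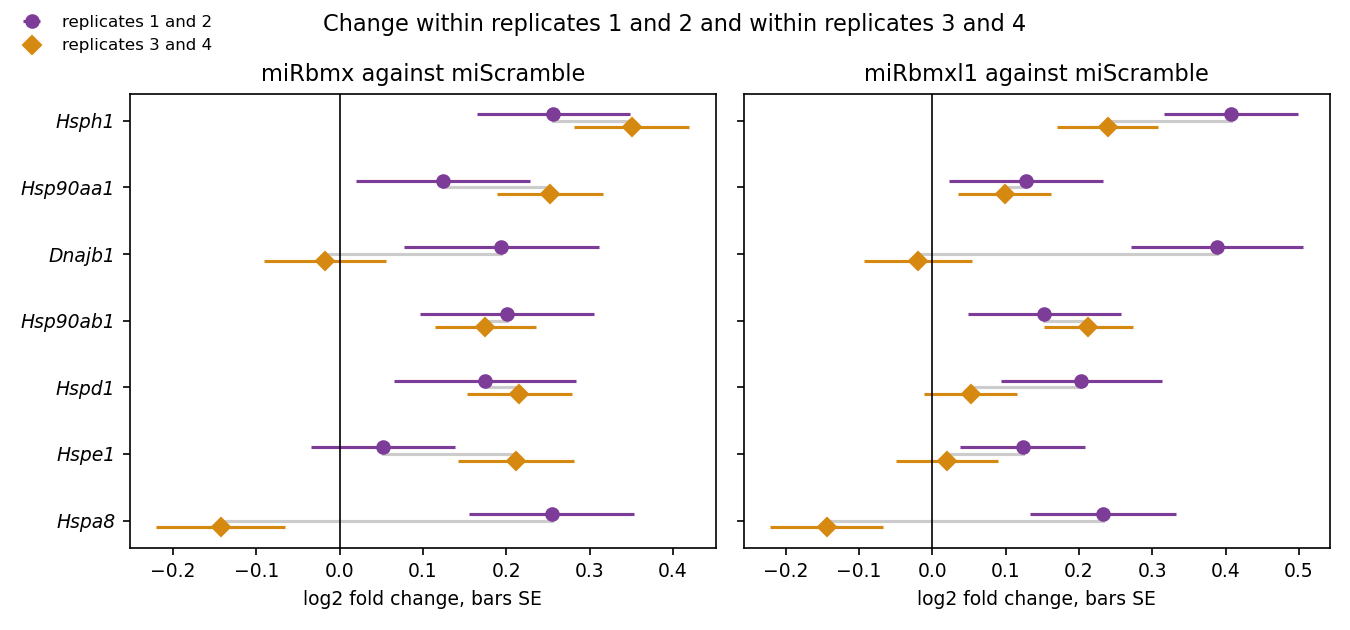
Log2 fold change of each tested member within replicates 1 and 2 (circles) and within replicates 3 and 4 (diamonds), with bars for SE, for each knockdown against miScramble. Hspa8 and Dnajb1 lie above 0 in replicates 1 and 2 and below 0 in replicates 3 and 4. The other members, Hsph1 among them, lie above 0 in both sets.

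Set directly against each other, the knockdowns did not differ for any tested member at the adjusted threshold. None of the 7 members was called by edgeR, with 0 at an unadjusted p under 0.05 and 0 called by DESeq2, beside 0.0114% of all genes called by edgeR and 5.70% at an unadjusted p under 0.05. For Hsph1 the ratio of miRbmx to miRbmxl1 was 0.986 (95% interval 0.891 to 1.09). For Hspa8 it was 1.01 (0.887 to 1.15), and for Dnajb1 it was 0.933 (0.821 to 1.06). With 4 libraries a group, the data do not exclude true ratios within these intervals, and smaller or larger differences between the knockdowns inside them remain possible.

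By class, the 3 tested inducible members (Hsp90aa1, Hsph1 and Dnajb1) stood at a median of 0.19 (log2 fold change) in miRbmx and 0.18 in miRbmxl1. The 4 constitutive members had medians of 0.16 and 0.10, beside a median of 0.00 and 0.01 over all genes tested. The class medians in miRbmxl1 depended on the replicate set. Within replicates 1 and 2 they were 0.39 (inducible) and 0.18 (constitutive), and within replicates 3 and 4 they were 0.10 and 0.04. In miRbmx they were 0.19 and 0.19 within replicates 1 and 2, and 0.25 and 0.19 within replicates 3 and 4. The classes overlapped: in miRbmx the inducible gene Dnajb1 lay below Hsp90ab1, Hspd1 and Hspe1, and the inducible gene Hsp90aa1 lay below Hspd1. In miRbmxl1 Hsp90aa1 lay below Hsp90ab1 and Hspd1. The remaining inducible members are those with too few reads to be tested, so these medians describe the expressed members alone.

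The partners of these chaperones were taken from 7 lists with 67 genes, of which 63 were tested. With the block, 6 of the 63 genes were called in miRbmx, all higher (4.16% of all genes were called higher), and 3 in miRbmxl1, all higher (2.25% of all genes). Without the block edgeR called 0 in either, with 9 and 4 at an unadjusted p under 0.05, beside 10.9% and 8.46% of all genes. DESeq2 with the block called 10 and 6, beside the shares of all genes given for it above. In all, 47 of 63 were above 0 in miRbmx and 39 of 63 in miRbmxl1, with medians of 0.09 and 0.04, beside 50.0% and 51.4% of all genes above 0.

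Among 16 co-chaperones, edgeR with the block called 5 in miRbmx and 1 in miRbmxl1, all higher, beside 4.16% and 2.25% of all genes. DESeq2 called 5 and 3, beside 11.5% and 7.28% of all genes. Stip1, the adaptor that hands clients from HSP70 to HSP90, rose in both, by 0.22 ± 0.05 SE (edgeR adjusted p 0.0200) and 0.19 ± 0.05 SE (adjusted p 0.0493), with every knockdown library above its miScramble library. Ptges3, the p23 co-chaperone of HSP90, was at 412 to 465 CPM in miScramble and at 486 to 554 CPM in miRbmx, without overlap, and rose by 0.28 ± 0.07 SE (adjusted p 0.0271). Its value in miRbmxl1 was 0.15 ± 0.07 SE (adjusted p 0.266). Fkbp4, an immunophilin that binds HSP90, was at 292 to 318 CPM in miScramble and at 354 to 365 CPM in miRbmx and rose by 0.24 ± 0.06 SE (adjusted p 0.0216). In miRbmxl1 Fkbp4 was also above every miScramble library, at 319 to 373 CPM, with 0.19 ± 0.06 SE (adjusted p 0.0684).

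The other co-chaperones that rose in miRbmx were Bag1, an HSP70 exchange factor, at 0.25 ± 0.07 SE (edgeR adjusted p 0.0485), and Ahsa2, a relative of the HSP90 ATPase activator, at 0.27 ± 0.08 SE (adjusted p 0.0498). In miRbmxl1 Bag1 had 0.13 ± 0.07 SE (adjusted p 0.354) and Ahsa2 had 0.28 ± 0.08 SE (adjusted p 0.0590), with 3 and 4 of 4 pairs higher. Ahsa2 overlaps other genes on both strands, which makes its count uncertain.

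Of the 8 subunits of TRiC, the cytosolic chaperonin that folds actin and tubulin, 8 were above 0 in each knockdown, with medians of 0.19 and 0.12. Of all genes, 50.0% and 51.4% were above 0. With the block edgeR called 1 in miRbmx and 0 in miRbmxl1, beside 8.35% and 4.46% of all genes. DESeq2 called 4 and 1, beside 11.5% and 7.28%. In edgeR 7 and 3 had an unadjusted p under 0.05, beside 24.9% and 19.8%. Without the block edgeR called 0 in either, with 4 and 1 at an unadjusted p under 0.05, beside 10.9% and 8.46%. Cct7 was at 493 to 602 CPM in miScramble and at 638 to 709 CPM in miRbmx and rose by 0.30 ± 0.07 SE (edgeR adjusted p 0.0154). In miRbmxl1 it had 0.22 ± 0.07 SE (adjusted p 0.0726). An opposite-strand gene, Pradc1, overlaps it.

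In the other 5 lists, with 39 genes tested, edgeR called 0 in miRbmx and 2 in miRbmxl1, and DESeq2 called 1 and 2. At an unadjusted p under 0.05 in edgeR there were 6 and 5. The shares of all genes for these tests are those given above. Hspa2, an HSP70 gene best known from germ cells, was at 6.71 to 11.3 CPM in miScramble and 8.75 to 15.5 CPM in miRbmxl1 and rose by 0.37 ± 0.09 SE (edgeR adjusted p 0.0345). Dnajb2, a J-domain protein, rose by 0.24 ± 0.06 SE (adjusted p 0.0445). In miRbmx Hspa2 had 0.26 ± 0.09 SE (adjusted p 0.0929) and Dnajb2 had 0.17 ± 0.06 SE (adjusted p 0.116), each higher in 4 of 4 pairs. Of the 5 heat shock factors and regulators tested, edgeR and DESeq2 called 0 in either knockdown, with 0 at an unadjusted p under 0.05, and their medians were −0.03 and −0.01. Hsf1, the main activator of heat shock genes, was picked out for that role with its values already known. It was at 123 ± 13.6 CPM (SD, n = 4) in miScramble, 121 ± 12.9 CPM in miRbmx and 124 ± 16.7 CPM in miRbmxl1. Among 9 mitochondrial chaperones and proteases edgeR and DESeq2 also called 0 in either knockdown, with 0 at an unadjusted p under 0.05. In miRbmxl1, 7 of these 9 were below 0 (median −0.02), as were 5 of 8 other HSP70 and HSP110 genes (median −0.02), while in miRbmx 6 of 9 and 6 of 8 were above 0.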

How the data were processed

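RNA was profiled in 12 libraries of sorted Neuro-2a cells, 4 for each of miScramble, miRbmx and miRbmxl1. The authors deposited raw counts, 1 whole number per Ensembl gene and library, and 5 closing rows that name no gene held 52.3% to 57.4% of each file. Per the submitters' processing notes, cutadapt, STAR 2.5.3a, HTSeq 0.6.1p1, R 3.3.2, DESeq2 1.16.1 and the mm10 build were used. The annotation and the strand setting are not given in the sources used here. Names, positions and merged exon lengths came from GENCODE M21 (GRCm38, the assembly of mm10).

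Counts were fitted with edgeR 4.0.16 in R 4.3.3: filterByExpr (minimum count 10, minimum total 15; 17569 of 55401 genes), TMM scaling, and a quasi-likelihood model of group and replicate number over all libraries. Calls are at a Benjamini-Hochberg adjusted p under 0.05 over all genes tested. SE and 95% intervals came from the F statistic. CPM values use TMM-scaled library sizes, which for the 12 libraries rest on 43.1 to 52.2 M reads in genes. The replicate block was part of the plan for these members, which was made with earlier results of these data known. Libraries that share a number across groups deviated together from their group means in 12 of 12 pairs (r from 0.20 to 0.52). So did, in an overlapping range, libraries of different number and group within replicates 1 and 2 or within replicates 3 and 4 (12 pairs, r from 0.10 to 0.43), and the labels leave the meaning of the number unstated. Alternatives were a fit with no block, DESeq2 1.42.0, RLE and upper-quartile scaling, no filter, left-out libraries, subsets of replicates, and only the groups compared. A test of whether changes differ between replicates 1 and 2 and replicates 3 and 4 was added after the data were seen. The scripts were tested on simulated data. Values for all 10 members are given. The other named genes are the targeted genes, the partner genes called against miScramble, and the 5 non-members most like each class by Pearson r, plus Hsf1, 2 neuronal markers and the genes that share sequence with a member or overlap a named gene. The members and lists were chosen with earlier results of these data known.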

Additional observations from a re-analysis of the deposited data

How the results depend on the processing

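With the replicate number as a block, 1467, 783 and 2 genes were called for miRbmx and miRbmxl1 against miScramble and for miRbmx against miRbmxl1. With no replicate block the counts were 1, 1 and 2, the members called fell from 1 to 0 against miScramble in both knockdowns, and the partner genes called fell from 6 and 3 to 0. DESeq2 called 2024 genes and 2 members in miRbmx, 1279 genes and 2 members in miRbmxl1, and 10 genes between the knockdowns. With no filter 2085 genes and 4 members were called in miRbmx, 1243 genes and 2 members in miRbmxl1, and 86 genes between the knockdowns. Only the groups compared gave 2190 genes and 4 members in miRbmx and 426 genes in miRbmxl1, and upper-quartile scaling gave 1478 genes and 2 members in miRbmx. Within replicates 1 and 2, 4, 30 and 4 genes and 0 and 0 members were called. Within replicates 3 and 4, 1818 genes and 3 members were called in miRbmx, 992 genes and 2 members in miRbmxl1, and 18 genes between the knockdowns.

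Leaving out replicates or single libraries gave 146 to 1904 genes and 0 to 3 members in miRbmx, 100 to 1032 genes and 0 to 2 members in miRbmxl1, and 2 to 7 genes and 0 members between the knockdowns. Signs turned for values that were not called. Within replicates 3 and 4, the log2 fold change of Dnajb1 was −0.017 in miRbmx and −0.020 in miRbmxl1, and that of Hspa8 was −0.14 in both. Leaving out libraries took Dnajb1 from −0.037 to 0.155 in miRbmx, and Hspa8 from −0.032 to 0.133 in miRbmx and from −0.070 to 0.142 in miRbmxl1. Between the knockdowns, within replicates 1 and 2, Hsp90aa1 was at −0.0036, Hspd1 at −0.028 and Hspe1 at −0.071. Within replicates 3 and 4, Hsph1 was at 0.11, Dnajb1 at 0.0028 and Hsp90ab1 at −0.038. Left-out libraries there gave −0.076 to 0.070 for Hsph1, −0.172 to 0.020 for Dnajb1, −0.068 to 0.093 for Hspa8 and −0.047 to 0.043 for Hsp90ab1. The cause was not tested. Of the member values under other settings than a left-out library, 141 kept their direction and side of the threshold, 13 passed it, 4 no longer did and 10 changed sign.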

Other observations

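Among 9375 genes with a mean of 10 CPM or more that are not members, those whose log2 CPM over the 12 libraries followed the mean z-score of the 3 tested inducible members most closely were Znfx1 (Pearson r 0.985), Slc37a3 (0.984), Fxr1 (0.971), Fem1b (0.968) and Igsf23 (0.967). For the 4 constitutive members they were Micu2 (0.977), Serinc3 (0.974), Med19 (0.967), Slc37a3 (0.964) and Cct5 (0.964), a subunit of the TRiC chaperonin. Slc37a3 was on both lists, and its levels ran from 42.0 to 63.0 CPM. All of these genes share with the members the same 12 libraries, whose replicates 1 and 2 stand apart from replicates 3 and 4, so the correlations are a description.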
